A study of Homo sapiens with 4 samples.

Results

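E2F transcription factors, their dimer partner and the RB-like pocket proteins were followed in J.gamma1 cells given FB23-2. The set comprised 10 genes of the 64252 gene IDs in the deposited count table: E2F1, E2F2, E2F3, E2F4, E2F6, E2F7, E2F8, TFDP1, RBL1 and RBL2. They were chosen by symbol, and each symbol matched 1 Ensembl ID. All 10 were among the 18817 genes that passed the filter on low counts. RB1, E2F5 and TFDP2 belong to the same families and are described beside them.

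J.gamma1 cells were derived from Jurkat, an established human line of T-cell leukaemia (T-ALL), and are known to lack the signalling enzyme PLCG1. One group of cultures received 10 µM FB23-2, an inhibitor of the RNA demethylase FTO, and the control group received DMSO at under 0.1%, with 48 h of culture in both. Each group held 2 libraries, which the labels call independent biological replicates, all from this single line. The comparison asked which genes FB23-2 modulated.

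E2F proteins bind promoters of genes needed for DNA synthesis and cell division. Most do so as a heterodimer with a DP protein, of which TFDP1 is the best studied. The pocket proteins RB1, RBL1 (p107) and RBL2 (p130) bind E2F dimers and silence their targets until cyclin-dependent kinases phosphorylate them. E2F1, E2F2 and E2F3 are known as activators bound by RB1, whereas E2F4 is known as a repressor that works with RBL1 and RBL2. In quiescent cells RBL2, E2F4, TFDP1 and the MuvB proteins form the DREAM complex, which represses cell cycle genes. E2F6, E2F7 and E2F8 repress without pocket proteins, and E2F7 and E2F8 bind DNA without a DP partner.

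Several of these genes are known to be E2F targets themselves, so the sequence just before their start sites is shown first. Windows of 250 bases upstream of the RefSeq start (GRCh38.p14) were found for 9 members, with 11 windows in all because E2F3 and RBL2 had a pair each. E2F8 had none here. The E2F site was searched on both strands as TTTCCCGC, TTTCGCGC, TTTGGCGC or TTTGCCGC. Exact matches stood upstream of 5 of the 9 members (E2F1, E2F2, E2F3, TFDP1 and RBL1). Of 35116 RefSeq windows of that length 2.79% had a match, a share by window and not by gene. By gene, 634 tested genes had a match and 11068 had a window but no match. E2F1 and RBL1 had 2 matches each, which 0.122% of all windows had. The last 100 bases before the start are given below in the gene's orientation for the members with a match in that stretch, with the matches in capitals, and for E2F7 as a member with no match.
E2F1 (chr20:33686386-33686485, minus strand): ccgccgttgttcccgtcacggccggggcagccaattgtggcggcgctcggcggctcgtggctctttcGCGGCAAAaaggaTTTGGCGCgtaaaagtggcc
E2F2 (chr1:23531234-23531333, minus strand): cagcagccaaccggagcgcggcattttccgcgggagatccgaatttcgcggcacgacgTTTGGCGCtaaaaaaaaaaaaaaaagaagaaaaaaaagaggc
E2F3 (chr6:20401779-20401878, plus strand): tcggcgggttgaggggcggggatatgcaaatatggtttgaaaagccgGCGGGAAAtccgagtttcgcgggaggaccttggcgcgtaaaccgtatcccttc
RBL1 (chr20:37095998-37096097, minus strand): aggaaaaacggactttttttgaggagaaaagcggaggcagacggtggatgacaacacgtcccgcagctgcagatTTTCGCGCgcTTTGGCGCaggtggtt
E2F7 (chr12:77065570-77065669, minus strand): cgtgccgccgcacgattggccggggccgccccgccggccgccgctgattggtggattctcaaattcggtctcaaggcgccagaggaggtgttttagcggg

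The E2F1 matches lay at bases -33 to -26 and -20 to -13 from the start, and those of RBL1 at -26 to -19 and -16 to -9. E2F2 had its match at -42 to -35, E2F3 at -53 to -46 in its more upstream window, and TFDP1 at -120 to -113. The cell cycle homology region, searched as TTTGAA, was present only upstream of E2F3 among these 9, against 13.3% of all windows. The MYC-type E-box, searched as CACGTG, stood only in the other E2F3 window, against 6.34%. No match overlapped another. RefSeq starts and the GENCODE gene spans given for the members do not coincide. Both RBL2 windows and the more downstream E2F3 window lie inside the gene's span, whereas the RefSeq starts of E2F2, E2F4 and RBL1 and the upstream start of E2F3 lie outside it. A match describes these letters alone and is not evidence of binding.

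**Figure D1:**
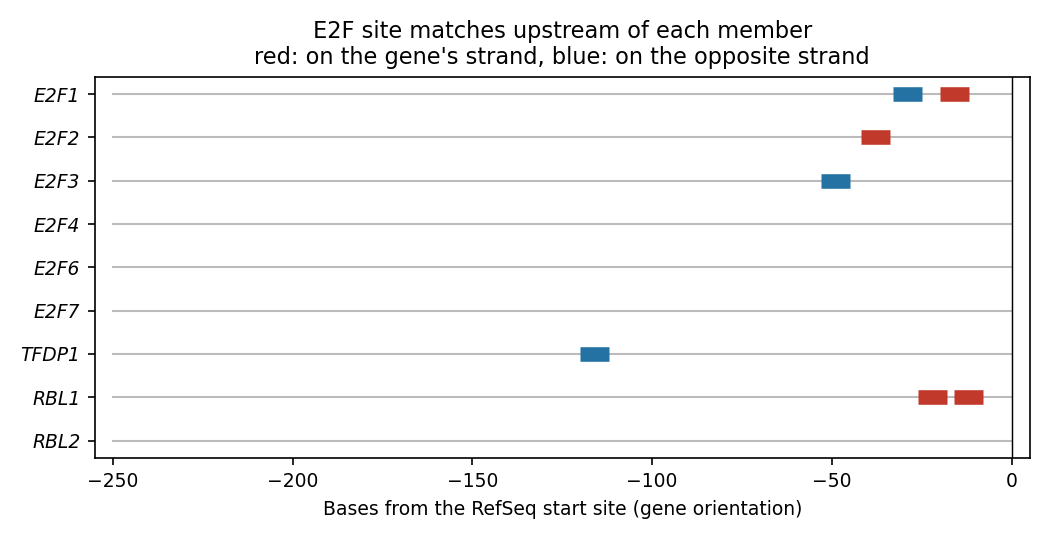
Position of exact E2F site matches in the 250 bases upstream of the RefSeq start of 9 members, with the x axis in bases from the start and each bar 1 match of 8 bases. E2F1 and RBL1 carry 2 matches within 33 bases of the start, and E2F4, E2F6, E2F7 and RBL2 carry none.

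Of the 10 members, 4 rose with FB23-2 (E2F2, E2F7, E2F8 and RBL2), 3 fell (E2F1, E2F4 and TFDP1) and 3 did not pass the test (E2F3, E2F6 and RBL1). E2F8 moved most, to nearly double its control level. The test was edgeR's quasi-likelihood test at an adjusted p under 0.05 over all tested genes, and it called 42.1% of them, 21.8% higher and 20.3% lower. Levels are CPM (counts scaled to library size, with TMM factors), and each log2 fold change sets FB23-2 against control and carries its standard error (SE). Groups did not overlap for 8 of the 10 members, against 70.8% of all tested genes. The median log2 fold change was -0.01 for the members and 0.00 for all tested genes. In bulk RNA, less RNA per cell and fewer cells with the RNA cannot be told apart, and E2F genes are known to vary through the cell cycle.

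**Figure D2:**
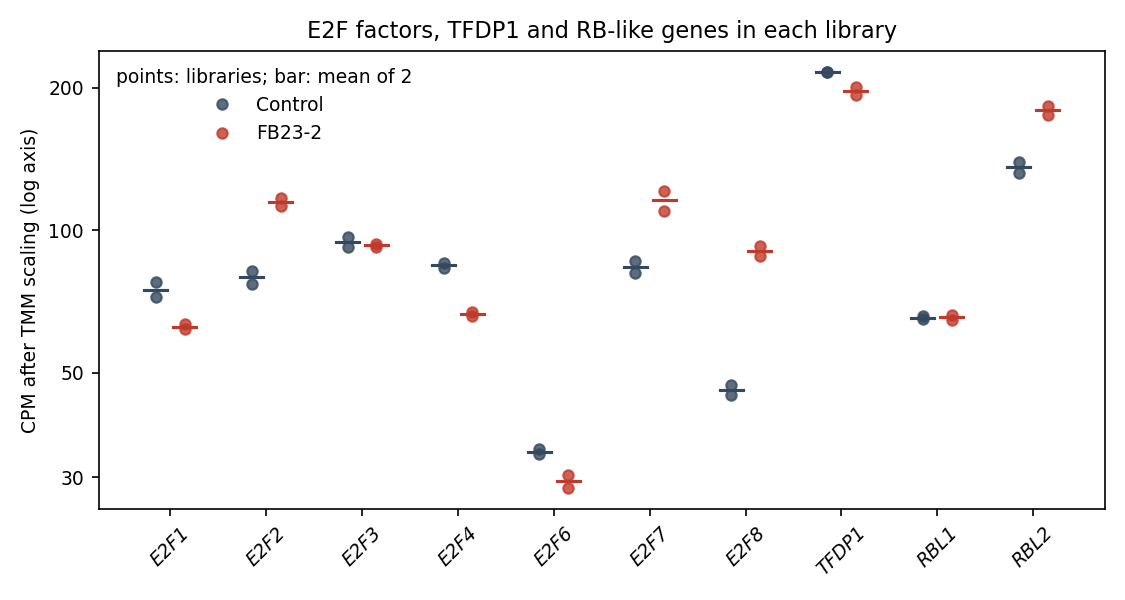
CPM of each member in each library on a log axis, with points for libraries and a bar for the mean of 2. The FB23-2 points of E2F2, E2F7, E2F8 and RBL2 lie above both control points, and those of E2F3 and RBL1 overlap them.

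The activators went separate ways. E2F1 (ENSG00000101412, chromosome 20, 33675683 to 33686404 of hg38), the founding activator of the family, measured 63.2 and 61.9 CPM in treated cells, against 72.1 and 77.7 CPM in controls. Both FB23-2 values were below both control values. Its log2 fold change was -0.26 ± 0.06 (edgeR adjusted p = 0.00613), a level 1.2-fold lower. That call was lost without control replicate 2 (log2 fold change -0.20, edgeR adjusted p = 0.0829), in a range of 0.00289 to 0.0829 over 11 alternatives.

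E2F2 (ENSG00000007968, chromosome 1, 23506430 to 23531220), an activator with a known part in lymphocyte proliferation, measured 117 and 113 CPM under FB23-2, against 77.2 and 82.1 CPM in controls. The groups were apart by more than the spread within either. The rise was 1.44-fold (log2 fold change 0.53 ± 0.05, edgeR adjusted p = 5.66e-05). E2F3 (ENSG00000112242, chromosome 6, 20401906 to 20493715), whose E2F3a and E2F3b transcripts start at separate promoters, had 93.7 and 92.1 CPM with FB23-2 against 92.2 and 96.7 CPM. These values overlapped, and E2F3 did not pass (log2 fold change -0.03 ± 0.05, edgeR adjusted p = 0.73). Counts per gene do not separate the E2F3 transcripts.

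E2F4 was the canonical repressor among the members. E2F4 (ENSG00000205250, chromosome 16, 67192169 to 67198918), the main E2F of DREAM, measured 65.9 and 67.3 CPM under FB23-2, against 85.4 and 83.2 CPM in controls. Both treated libraries were lower, by 1.26-fold (log2 fold change -0.34 ± 0.05, edgeR adjusted p = 7.61e-04), the lowest log2 value among the members. E2F6 (ENSG00000169016, chromosome 2, 11444375 to 11466177), which represses within a variant Polycomb complex, was the least abundant member. It had 30.4 and 28.5 CPM with FB23-2 and 34.5 and 33.5 CPM in control. The groups did not overlap, but E2F6 missed the threshold (log2 fold change -0.21 ± 0.08, edgeR adjusted p = 0.0578). It passed with upper quartile scaling (0.0283) and with a filter at a mean of 1 CPM (0.0386), in a range of 0.0283 to 0.226.

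The atypical repressors E2F7 and E2F8, which carry a pair of DNA-binding domains each and repress E2F1 among other targets, both rose. E2F7 (ENSG00000165891, chromosome 12, 77021247 to 77065580) had 110 and 121 CPM with FB23-2 and 86.0 and 81.2 CPM in control. Each treated library was above each control library, although the treated pair was spread more widely than the control pair. The rise was 1.39-fold (log2 fold change 0.47 ± 0.06, edgeR adjusted p = 2.65e-04).

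E2F8 (ENSG00000129173, chromosome 11, 19224063 to 19241620) had 92.5 and 88.4 CPM with FB23-2 and 44.8 and 47.0 CPM in control. The treated libraries lay far above the controls relative to the spread within each pair. Its rise of 1.97-fold was the largest of the 10 (log2 fold change 0.98 ± 0.06, edgeR adjusted p = 2.99e-06), and 5.11% of tested genes had a higher log2 fold change. The raw counts behind E2F8 were 3535 and 3067 with FB23-2 and 1080 and 1617 in control.

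TFDP1 (ENSG00000198176, chromosome 13, 113584721 to 113641470), the dimer partner, was the most abundant member, at 201 and 194 CPM with FB23-2 and 217 and 216 CPM in control. Both treated libraries were lower by a small margin. The log2 fold change of -0.13 ± 0.04 passed (edgeR adjusted p = 0.0265) but was lost under 5 of 11 alternatives. These were library size scaling (log2 fold change -0.09, adjusted p = 0.114), no filter (0.0863), and the fits that left out FB23-2 replicate 2 (0.137), the first control library (0.0974) or the other control library (0.141).

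The pocket proteins split as well. RBL2 (ENSG00000103479, chromosome 16, 53433977 to 53491649), the p130 protein of quiescent cells, had 175 and 183 CPM with FB23-2 and 132 and 140 CPM in control. Every treated value was above every control value, and the rise was 1.32-fold (log2 fold change 0.40 ± 0.05, edgeR adjusted p = 1.61e-04). RBL2 shares 8.33% of its exon bases with AKTIP on the opposite strand. AKTIP rose too, from 16.3 ± 0.692 to 25.6 ± 0.482 CPM (log2 fold change 0.66), and the strand setting of the counts is not given in the sources used here.

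RBL1 (ENSG00000080839, chromosome 20, 36996349 to 37095995), the p107 protein of cycling cells, had 64.7 and 66.1 CPM with FB23-2 and 64.8 and 66.0 CPM in control. The groups overlapped throughout. Its log2 fold change was 0.00 ± 0.06 (edgeR adjusted p = 0.997). Over the alternatives, the log2 fold change of RBL1 ran from -0.04 to 0.05.

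**Figure D3:**
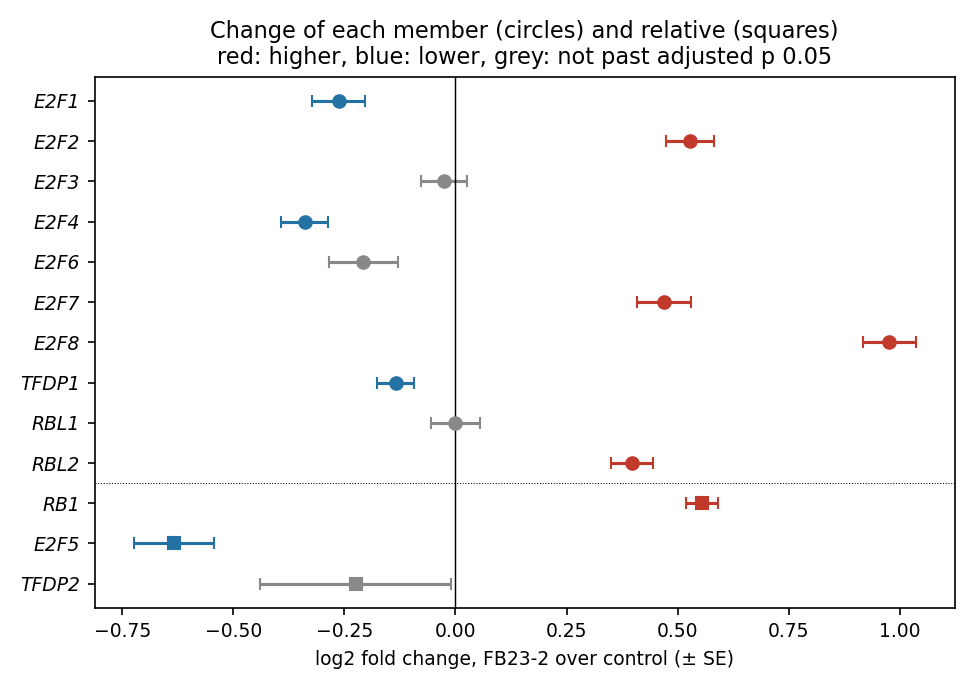
Log2 fold change, FB23-2 over control, with SE bars for the 10 members (circles) and 3 relatives (squares), red where higher, blue where lower and grey where the adjusted p was not under 0.05. E2F8 has the highest value (0.98) and E2F5 the lowest (-0.63).

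Relatives outside the set moved in both directions too. RB1, the retinoblastoma protein, had 516 and 527 CPM with FB23-2 and 355 and 354 CPM in control, with no overlap. It rose 1.47-fold (log2 fold change 0.56 ± 0.04, edgeR adjusted p = 4.21e-06). E2F5, a repressor related to E2F4, had 21.0 and 23.7 CPM with FB23-2 and 33.5 and 35.6 CPM in control, and fell 1.55-fold (log2 fold change -0.63 ± 0.09, edgeR adjusted p = 4.33e-04). RBIS, on the opposite strand, shares 16.3% of the E2F5 exon bases and was also lower (log2 fold change -0.44). TFDP2, the other DP gene of most tissues, had 163 and 224 CPM with FB23-2 and 214 and 237 CPM in control. The wide treated pair overlapped the controls, and TFDP2 missed the threshold (log2 fold change -0.22 ± 0.22, edgeR adjusted p = 0.512). Without FB23-2 replicate 2, TFDP2 passed as lower (log2 fold change -0.46, adjusted p = 0.00142). TFDP3 had 2 counts in 1 control library and 0 elsewhere and was not tested.

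To compare levels between genes, CPM was divided by the length of all annotated exons in kilobases (CPM per kb). In control cells TFDP1 was highest at 57.8 ± 0.107 CPM per kb (mean ± SD, n = 2), followed by E2F1 (29.9 ± 1.59), E2F4 (23.5 ± 0.436), RBL2 (18.6 ± 0.703) and E2F3 (18.3 ± 0.623). E2F2 (14.6 ± 0.639), E2F7 (13.3 ± 0.528), E2F8 (11.1 ± 0.367), RBL1 (10.98 ± 0.140) and E2F6 (8.37 ± 0.171) came below. In this order RBL2 overlapped E2F3, and E2F8 overlapped RBL1.

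With FB23-2 the order of levels per kb changed below the 2 highest genes. TFDP1 (52.7 ± 1.32 CPM per kb) and E2F1 (25 ± 0.378) stayed first and second, but RBL2 (24.5 ± 0.780) now overlapped E2F1. E2F8 came next at 21.9 ± 0.701 CPM per kb, up from place 8 to place 4, and overlapped E2F2 (21.1 ± 0.571). E2F4 (18.6 ± 0.267), E2F7 (18.3 ± 1.28) and E2F3 (18.0 ± 0.211) followed, each overlapping the next. RBL1 (10.99 ± 0.164) and E2F6 (7.23 ± 0.327) remained the lowest. The dimer partner and E2F1 thus headed both orders, while the atypical E2F8 moved up by the most places.

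Summed over E2F1 to E2F8, E2F RNA was 134 ± 0.314 CPM per kb with FB23-2 and 125 ± 2.34 in control, where each ± is the SD of 2 libraries. The atypical E2F7 and E2F8 together made up 29.7% and 30.4% of this sum under FB23-2, against 19.9% and 19.2% in controls. E2F4, E2F5 and E2F6 together made up 21.9% and 22.3% with FB23-2 and 30.8% and 29.6% in control. The activators E2F1 to E2F3 made up 48.4% and 47.3% with FB23-2 and 49.3% and 51.2% in control. Their combined share thus moved less than the share of either repressor class, although E2F1 went down within it and E2F2 up. These shares depend on the annotated exon lengths and are given as a description.

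**Figure D4:**
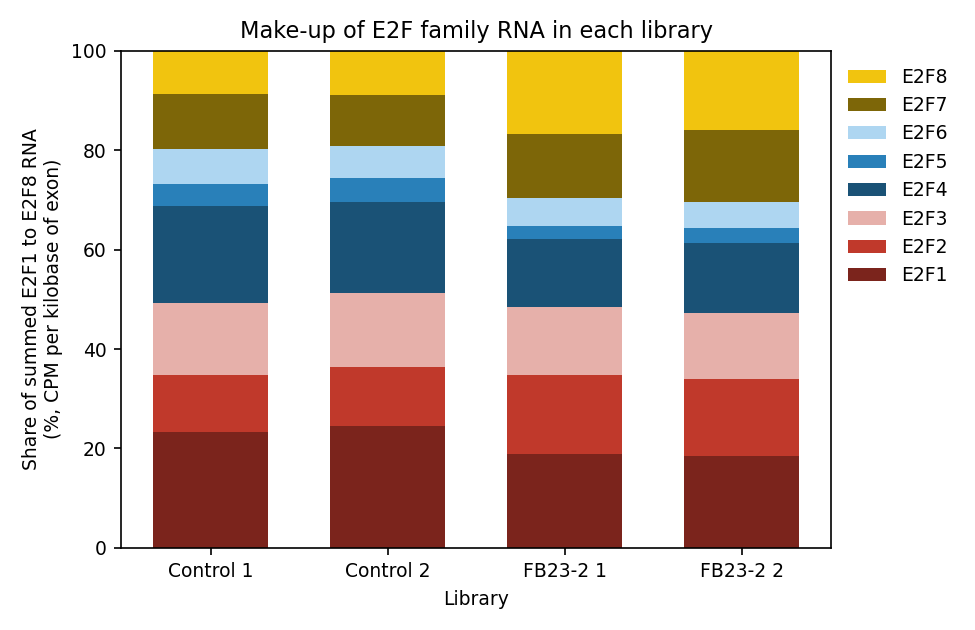
Share of each E2F gene in the summed E2F1 to E2F8 level (percent, from CPM per kb) in each library. E2F8 takes 16.7% and 16.0% under FB23-2, against 8.79% and 8.97% in controls.

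Ratios within a library do not depend on how libraries are scaled. The E2F8 to E2F1 ratio, from levels per kb, was 0.885 and 0.864 with FB23-2 and 0.376 and 0.366 in control. The E2F2 to E2F1 ratio was 0.850 and 0.836 against 0.491 and 0.485, and the RBL2 to RBL1 ratio was 2.204 and 2.257 against 1.66 and 1.72. In each of these the treated libraries were both above the controls. Each ratio sets a member that rose over E2F1, which fell, or RBL1, which did not pass. The ratios thus restate the fold changes above. An exact two-sided permutation test gave p = 0.333 for each, the smallest that 2 libraries against 2 allow. Once the groups are apart that test can give no other value, so it lends no further support.

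The genes with values most like those of E2F8 over the 4 libraries, in log2 CPM centred on the gene mean, were HDAC9, CAMK2D and LINC03040. Their Euclidean distances were 0.0280, 0.0382 and 0.0413 among 11851 genes at a mean of at least 5 CPM. For E2F4, the lowest of the members that passed, they were VKORC1 (0.00823), RNF169 (0.0162) and ZBTB2 (0.0191). With 4 libraries this likeness rests mainly on the difference between the groups.

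Genes around the members are given next, from lists that overlap in a few genes. Each count is to be read beside the shares over all tested genes, 21.8% higher and 20.3% lower. Those shares are not matched for level: the median tested gene had 15.2 CPM, and most listed genes had more. The lists were chosen with earlier results of these data known. MuvB proteins, which join E2F4 and RBL2 in DREAM and the MYB proteins and FOXM1 in dividing cells, were listed with those partners and the MuvB kinase DYRK1A. Of 9 such genes 8 (88.9%) rose and 0 fell, with a median log2 fold change of 0.30. RBBP4 (-0.07 ± 0.04, edgeR adjusted p = 0.122) did not pass, except with upper quartile scaling, where it was lower. MYBL1 (A-MYB) went from 23.0 ± 1.71 to 50.6 ± 3.32 CPM (1.13 ± 0.09). LIN54, the DNA-binding subunit of MuvB (0.57 ± 0.05), and LIN37, its repressive subunit (0.54 ± 0.14), also rose. The smallest rises were those of MYBL2 (0.21 ± 0.04), DYRK1A (0.24 ± 0.05) and LIN52 (0.24 ± 0.08). LIN37 lost its call without FB23-2 replicate 1 or control replicate 2, DYRK1A without control replicate 2, and LIN52 under 7 of 11 alternatives. LIN37 shares 41.8% of its exon bases with an antisense gene. Without control replicate 2, 5 of the 9 passed as higher.

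Partners of E2F6 in its Polycomb complex fell in 5 of 12 cases (41.7%) and rose in 1 (8.33%), for a median of -0.05. Of all tested genes 20.3% fell and 21.8% rose. L3MBTL2, a chromatin reader of that complex, went from 47.7 ± 3.10 to 28.7 ± 1.32 CPM (-0.73 ± 0.08). WDR5 (-0.39 ± 0.05), the HP1 protein gene CBX3 (-0.34 ± 0.05), the deacetylase gene HDAC2 (-0.32 ± 0.04) and MGA (-0.26 ± 0.07) fell. MGA, the DNA-binding partner of MAX there, lost its call without control replicate 2 (edgeR adjusted p = 0.0982). RYBP, a subunit shared by several variant Polycomb complexes, rose from 101 ± 2.86 to 155 ± 0.224 CPM (0.62 ± 0.05). CBX3 shares 7.93% of its exon bases with HNRNPA2B1 on the opposite strand, which averaged 1520 CPM without TMM factors. The strand setting of the counts is not known here.

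Upstream of the pocket proteins, G1 cyclins, kinases and their inhibitors rose in 6 of 14 cases (42.9%) and fell in 4 (28.6%). The shares over all tested genes were 21.8% and 20.3%. The 3 largest rises at 5 CPM or more were of kinase inhibitors. CDKN2D (p19) went from 31.1 ± 1.66 to 76.7 ± 4.46 CPM (1.30 ± 0.07), CDKN2C (p18) from 87.4 ± 2.37 to 151 ± 6.96 CPM (0.79 ± 0.05) and CDKN1B (p27) from 142 ± 3.36 to 217 ± 0.213 CPM (0.61 ± 0.04). Below 5 CPM, CDKN1A (p21) rose from 1.97 ± 0.208 to 4.65 ± 0.512 CPM (1.21 ± 0.23) and was named after its values were seen. CDK4 (-0.49 ± 0.06) and CDK6 (-0.43 ± 0.03), the cyclin D-dependent kinases of pocket proteins, fell, as did their cyclin partner CCND3 (-0.19 ± 0.04). CDK2, the cyclin E-dependent kinase that also phosphorylates them, rose (0.19 ± 0.04, edgeR adjusted p = 0.00619) and was named after its values were seen. CDK2 kept its call under 10 of 11 alternatives. CCND3 no longer passed when control replicate 2 was left out (edgeR adjusted p = 0.055). The other gene that fell, CCND1, was near absent, going from 0.988 ± 0.164 to 0.378 ± 0.168 CPM (-1.38 ± 0.47), and it was named after its values were seen. CCND1 shares 10.3% of its exon bases with LTO1 on the opposite strand, which averaged 20.4 CPM without TMM factors. With the strand setting unknown, these few counts cannot be assigned to CCND1 with certainty. CCND1 lost its call under 5 of the 10 alternatives that tested it (edgeR adjusted p from 0.0351 to 0.239). Without control replicate 2, 2 of the 14 passed as lower. CDKN2A and CDKN2B, from a locus known to be deleted in Jurkat cells, did not reach the filter.

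Among genes that act on E2F protein turnover, 6 of 9 (66.7%) rose and 1 (11.1%) fell, with a median of 0.20. For all tested genes these shares were 21.8% and 20.3%. SKP2, the ubiquitin ligase subunit that targets p27, fell from 133 ± 4.68 to 81.7 ± 2.26 CPM (-0.71 ± 0.05). USP11, a deubiquitinase (0.71 ± 0.04), CKS1B, the SKP2 cofactor (0.54 ± 0.04), and FBXO5 (EMI1), an inhibitor of the anaphase-promoting complex (0.25 ± 0.05), rose. Rises were smallest for cyclin A2 (CCNA2, 0.16 ± 0.04) and cyclin F (CCNF, 0.20 ± 0.05), and each lost its call under 3 of the 4 fits with a library left out. FBXO5 lost its call without control replicate 1. Without control replicate 1, 2 of the 9 passed as higher.

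G1/S genes known as E2F targets did not move as a block. Of 60, 21 rose, 15 fell and 24 did not pass, and the median was 0.07. Among the highest were the chromatin ATPase ATAD2, from 338 ± 2.13 to 556 ± 11.2 CPM (0.72 ± 0.04), and cyclin E2 (CCNE2, 0.60 ± 0.05). CCNE2 shares 37.0% of its exon bases with INTS8 on the opposite strand, which went from 91.7 ± 5.26 to 96.8 ± 1.48 CPM and did not pass (0.08). At the bottom were the uracil glycosylase UNG, from 108 ± 0.222 to 51.2 ± 0.640 CPM (-1.07 ± 0.05), and the helicase subunits MCM5 (-1.01 ± 0.05) and MCM6 (-0.94 ± 0.04).

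All 6 subunits of the MCM2 to MCM7 replicative helicase fell, with a median of -0.79. This subgroup was picked out after its values were seen. Of the other 54 G1/S genes 21 (38.9%) rose and 9 (16.7%) fell, for a median of 0.10. MCM7 hosts a microRNA cluster known to target E2F1, and its level went from 511 ± 3.84 to 287 ± 3.75 CPM (-0.83 ± 0.04).

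Genes of G2 and mitosis that DREAM is known to repress rose in 28 of 35 cases (80.0%) and fell in 4 (11.4%). Their median was 0.32, and over all tested genes 21.8% rose and 20.3% fell. The phosphatase CDC25C went from 20.6 ± 0.795 to 38.8 ± 0.764 CPM (0.92 ± 0.08), the topoisomerase TOP2A from 807 ± 17.0 to 1436 ± 8.62 CPM (0.83 ± 0.03) and the spindle protein NUSAP1 from 247 ± 10.2 to 438 ± 10.1 CPM (0.83 ± 0.04). NUSAP1 shares 62.2% of its exon bases with another protein-coding gene annotated on the same strand. CDC25C shares 8.78% with FAM53C on the opposite strand, which averaged 69.8 CPM without TMM factors. Likewise CCNA2, given above, shares 9.08% with EXOSC9 on the opposite strand (186 CPM). The strand setting of the counts is not known here. KIF20A (-0.44 ± 0.07), CCNB1 (-0.42 ± 0.05) and CDC20 (-0.31 ± 0.06) fell, as did PLK1 (-0.30 ± 0.05), named after its values were seen.

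Of 12 death genes known as E2F1 targets, 9 rose and 0 fell, with a median of 0.47. BBC3 (PUMA) went from a low 2.69 ± 0.513 CPM to 9.68 ± 0.176 CPM (1.81 ± 0.18). TP53INP1 (1.54 ± 0.08) and PMAIP1 (NOXA, 0.81 ± 0.07) rose, as did APAF1, the apoptosome scaffold (0.38 ± 0.08). The initiator caspase gene CASP9 (0.33 ± 0.10) lost its call under 4 alternatives. Among them were the fits without either FB23-2 replicate and without control replicate 2. E2F1 RNA fell 1.2-fold (-0.26 ± 0.06, and -0.20 without control replicate 2). Whether E2F1 had a part in the rises of these death genes was not tested.

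MYC, a transcription factor known to induce E2F1 to E2F3, fell from 367 ± 1.08 to 62.5 ± 5.64 CPM (-2.55 ± 0.06, edgeR adjusted p = 3.77e-08). MIR17HG, the host of the microRNA cluster that MYC induces and that targets E2F1, fell from 5.24 ± 0.341 to 1.34 ± 0.751 CPM (-1.98 ± 0.31). The treated libraries held 31 and 65 counts of MIR17HG, and its log2 fold change was -1.49 without FB23-2 replicate 1 and -2.67 without FB23-2 replicate 2. CCND2 (-0.30 ± 0.16) and FTO (0.14 ± 0.06) did not pass, although FTO passed as higher with library size scaling (edgeR adjusted p = 0.0238). This list held MYC itself, MIR17HG, MCM7, CDK4, CCND2 and FTO, the target of FB23-2. MCM7, CDK4 and CCND2 also stand in lists above. Of these 6 genes, 4 (66.7%) fell and 0 rose, against 20.3% and 21.8% of all tested genes.

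**Figure D5:**
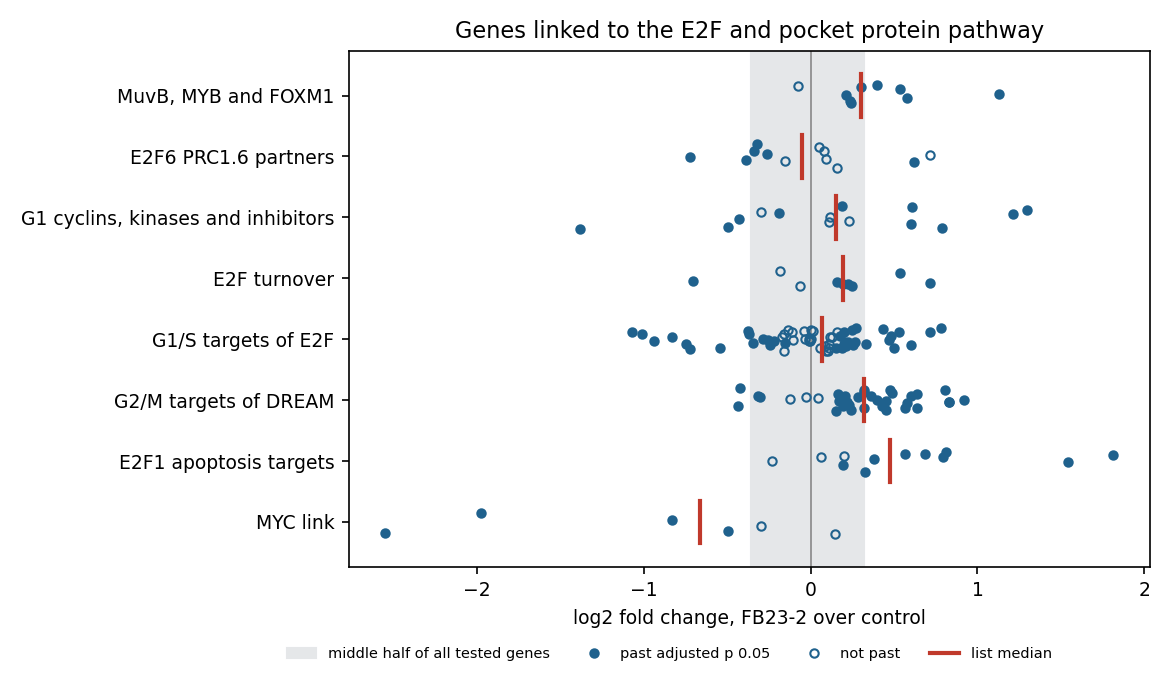
Log2 fold change, FB23-2 over control, of each gene in 8 lists around the E2F factors, filled where the adjusted p was under 0.05, with the list median in red and the interquartile range of all tested genes in grey. Medians run from -0.66 for the MYC list, which holds MYC itself, to 0.47 for the E2F1 death genes. The G1/S genes lie on both sides of 0.

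Across the transcriptome, 634 tested genes had an E2F site match in the upstream window. Of these, 193 (30.4%) rose and 156 (24.6%) fell, with a median log2 fold change of 0.04. Among 11068 tested genes with a window and no match, 26.6% rose and 22.8% fell, with a median of 0.03. Members with a match were found among those that rose (E2F2), fell (E2F1 and TFDP1) and did not pass (E2F3 and RBL1), and the same holds for the members without one (E2F7 and RBL2, E2F4, and E2F6).

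Library totals were 37804516 and 33983246 counts with FB23-2 and 24615359 and 34897961 in control, and each member had between 832 and 7662 counts in a library. T-lineage markers were present, 10 of 11 at a mean of 5 CPM or more, and summed to 1988 to 2057 CPM with FB23-2 and 2494 to 2500 in control. CD2 was the marker under that level. PLCG1 RNA was among those present and went from 265 ± 0.276 to 293 ± 2.49 CPM. Markers of myeloid cells (1.34 to 2.08 CPM with FB23-2 and 1.45 to 1.99 in control) and erythroid cells (0.209 to 0.346 and 0.145 to 0.166) were near 0. Natural killer markers summed to 6.52 to 6.92 CPM with FB23-2 and 4.03 to 4.59 in control, and the B-cell marker CD79A alone averaged 42.5 CPM. Epithelial and fibroblast markers summed to 10.0 to 10.4 CPM with FB23-2 and 7.803 to 8.249 in control. The part of any of these in the results was not tested.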

How the data were processed

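The authors deposited whole-number counts per Ensembl gene, with no normalization, for 4 libraries. Total RNA was made into TruSeq libraries, per the labels' protocols. The submitters' processing notes name HISAT2 2.2.0, StringTie and hg38. Annotation, strand setting and counting step: not given in the sources used here. In edgeR 4.0.16, low genes were removed with filterByExpr (minimum count 10), TMM factors set the library sizes, and the test used glmQLFit (robust) and glmQLFTest in R 4.3.3, with Benjamini-Hochberg adjustment over all 18817 tested genes. The SE is the absolute log2 fold change over the square root of F. Coordinates and exon lengths came from GENCODE 29 on the same build, and upstream sequences from RefSeq. The members and lists were chosen with earlier results of these data known. From each list of over 6 tested genes, the text names the 3 highest and 3 lowest log2 fold changes among called genes at a mean of 5 CPM or more; some genes that this rule picks are not reported here. RBBP4, CCND1, CDKN1A, CDK2, PLK1 and MCM2 to MCM7 as a group were named after their values were seen. Replicates of a group differed by more than sampling noise (chi-square per degree of freedom 6.69 and 7.48). Alternatives covered scaling, filter, DESeq2 1.42.0, a replicate block and each library left out. Library totals of 24615359 to 37804516 make 3 counts equal to 0.0794 to 0.122 CPM, and such floors cover counting error only.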

Additional observations from a re-analysis of the deposited data

How the results depend on the processing

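Over 11 alternatives, each member log2 fold change was recomputed. The rises of E2F2, E2F7, E2F8 and RBL2 and the fall of E2F4 kept direction and call in all 11, so 4 members were called higher throughout. Members called lower numbered 4 with upper quartile scaling and with the filter at a mean of 1 CPM, against 3. They numbered 2 with library size scaling and with no filter. With a library left out, the log2 fold change of E2F1 ran from -0.329 to -0.202 and that of TFDP1 from -0.179 to -0.105. Signs turned for values near 0: E2F3 was 0.022 with library size scaling and -0.075 to 0.014 with a library left out, and RBL1 was 0.047 with library size scaling, 0.001 with the replicate block and -0.029 to 0.016 with a library left out. Among values of the other named genes, 522 kept direction and side of the threshold, 26 lost the call, 2 gained it and 0 turned. Counts in the lists moved by over 1.5 times in these cases. With upper quartile scaling, 1 MuvB gene was lower and 3 turnover genes were lower. With RLE scaling and with the filter at a mean of 1 CPM, 2 turnover genes were lower. With library size scaling, 2 E2F6 partners and 1 MYC list gene were higher, and with DESeq2 2 E2F6 partners were higher. With 1 library left out, the MuvB list had 5 to 7 genes higher, the E2F6 partners 1 to 2 higher, the G1 list 2 to 4 lower, the turnover list 2 to 5 higher and 1 to 2 lower, and the relatives 1 to 2 lower. The causes were not tested. Replicate numbers are shared between groups only as numbers, and with the replicate block 4 members rose and 3 fell, as without it. The correlation of deviations of same-numbered libraries was 0.245, which with 2 libraries a group cannot show pairing. Depth was low for CCND1 (9 to 38 counts in a library), while each member had at least 832 counts in a library and an SE of 0.04 to 0.08.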
